A study of Mus musculus with 4 samples.

Results

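The genes described here encode the proteases that cut prohormones and the enzymes that trim the cut ends, measured in RNA of mouse pancreatic islets. They were chosen by symbol from the count table: the convertases Pcsk1, Pcsk2, Pcsk4, Pcsk5, Pcsk6, Pcsk7 and Furin, the carboxypeptidases Cpe and Cpd, and the amidating enzyme Pam, in all 10 of 55536 genes. Each symbol matched 1 row, and all 10 passed the filter on low counts. The islets came from male C57BL/6 mice aged 8 weeks, with no other genotype or treatment named. The islets were taken apart into cells, and polyadenylated RNA gave 4 bulk libraries, of which 2 were left as they were and 2 went through a step of library preparation that removes insulin sequences with a commercial panel. The labels call the libraries of a group biological replicates, but the same 2 codes stand in every column name, and no label ties a library to an animal. The p-values therefore reflect the spread of these libraries alone, which may be technical. Libraries with the same replicate number deviated together across the groups (r = 0.844 over 11610 genes, which are not independent). Fits on group alone count this shared difference as spread within groups. The column names differ in 1 more respect: those without depletion hold a tag for size selection, so depletion and size selection cannot be told apart. The libraries are called ND-1 and ND-2 (non-depleted, replicates 1 and 2) and DEP-1 and DEP-2 (insulin-depleted, replicates 1 and 2).

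Peptide hormones are made as inactive precursors and are cut inside secretory granules after pairs of basic amino acids. In endocrine cells this cut is made by PCSK1 and PCSK2, carboxypeptidase E then removes the basic residues left at the new end, and PAM turns a terminal glycine into an amide. Other convertases, with furin as the best known, work in the Golgi, at the cell surface or outside the cell of most tissues and cut growth factors, receptors and adhesion proteins. Insulin matures through PCSK1, PCSK2 and CPE, and glucagon is cut from its precursor by PCSK2 in alpha cells.

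Library totals without Ins1 and Ins2, the 2 mouse insulin genes, ran from 19278430 counts in DEP-1 to 64858544 in DEP-2. Levels below are CPM, counts scaled to these totals, and levels of different genes are compared as CPM per kb of annotated exon. Ins1 and Ins2 took 4.14% of all counts in ND-1, 3.97% in ND-2, 0.195% in DEP-1 and 0.264% in DEP-2. Islet markers were present in every library: 8 of 8 beta-cell markers summed to 18527 to 19812 CPM without and 18675 to 19496 CPM with depletion, and 6 of 6 alpha-cell markers to 11756 to 13326 and 11579 to 13215 CPM. No marker of the acinar, ductal, endothelial, fibroblast or immune lists was at 0 in any library. In bulk RNA, fewer cells of a type and less RNA per cell cannot be told apart.

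Carboxypeptidase E led the group, followed by the endocrine convertase Pcsk2, then Pam and Pcsk1. The ubiquitous convertases Furin, Pcsk6 and Pcsk7 were lower, and Pcsk5 was the lowest. Per kb of exon, Cpe had 1197 to 1267 CPM over the 4 libraries, Pcsk2 279 to 297, Pam 141 to 157, Pcsk1 54.9 to 68.7 and Cpd 50.8 to 58.6. Furin had 18.4 to 18.9 CPM per kb, Pcsk4 6.94 to 11.7, Pcsk6 7.91 to 10.7, Pcsk7 4.03 to 4.97 and Pcsk5 0.137 to 0.208. The ranges of neighbours in this order did not overlap except for Pcsk1 and Cpd, where Pcsk1 was still the higher in 4 of 4 libraries, and for Pcsk4 and Pcsk6, where Pcsk4 was the higher in 2 of 4. Among 19620 genes tested, ordered by mean CPM per kb, Cpe ranked 19, Pcsk2 84, Pam 195, Pcsk1 598, Cpd 689, Furin 2684, Pcsk4 5180, Pcsk6 5222, Pcsk7 8349 and Pcsk5 17494. With the mean length of coding transcripts in place of merged exons, Pam (732 to 816 CPM per kb) passed Pcsk2 (468 to 498), Furin (62.1 to 64.02) passed Cpd (53.3 to 61.4), and Pcsk6 (12.7 to 17.1) passed Pcsk4 (8.09 to 13.7), so the order within these pairs rests on the length used.

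**Figure D1:**
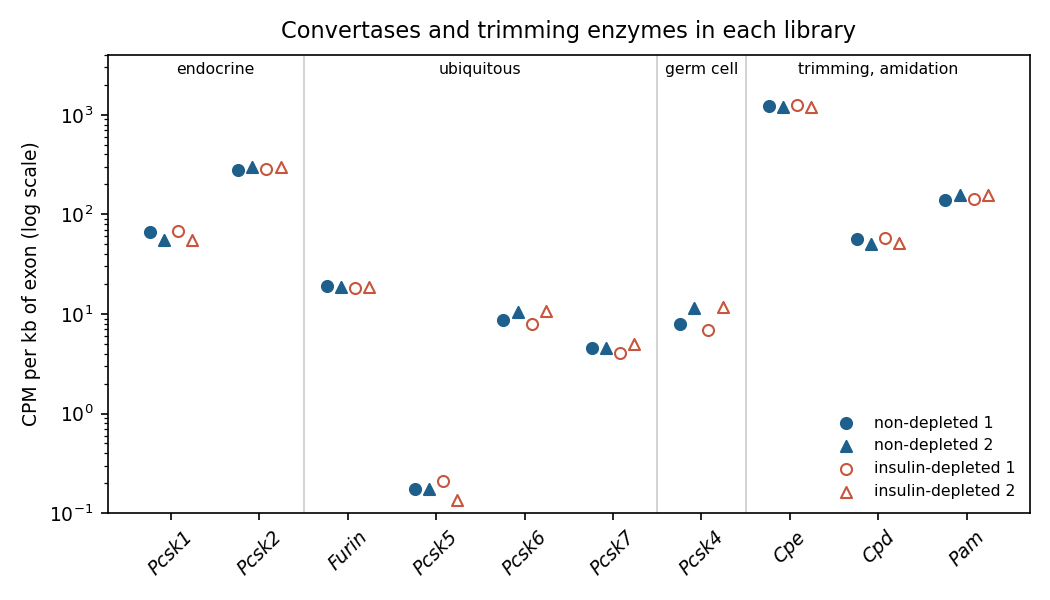
Level of each gene in each library, as CPM per kb of exon on a log axis, with 1 point per library (filled for non-depleted, open for insulin-depleted, circles for replicate 1, triangles for replicate 2). Cpe lies highest at 1197 to 1267 and Pcsk5 lowest at 0.137 to 0.208, and the points of a gene lie close together compared with the distance between genes.

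Pcsk2 (ENSMUSG00000027419, chromosome 2, 143546156 to 143816285, plus strand, GRCm38) was the most abundant convertase. It encodes the granule protease that releases glucagon and, with PCSK1, cuts proinsulin. Its levels were 2209 CPM in ND-1, 2345 in ND-2, 2269 in DEP-1 and 2351 in DEP-2. The groups overlapped, and in each group the library numbered 2 was the higher. The log2 fold change of insulin-depleted over non-depleted libraries was 0.02 (SE 0.08, n = 2 per group), with an adjusted p of 1.00 in the quasi-likelihood test of edgeR and Benjamini-Hochberg adjustment. Its 95% interval was 0.884 to 1.16 on the fold scale. Of its exon bases, 4.54% are also exons of the antisense genes Pcsk2os1 and Pcsk2os2, and whether strand was used in counting is not given in the sources used here.

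Pcsk1 (ENSMUSG00000021587, chromosome 13, 75089826 to 75134861, plus strand, GRCm38) encodes the other granule convertase, which starts proinsulin processing. It had 374 CPM in ND-1, 308 in ND-2, 385 in DEP-1 and 312 in DEP-2. Here the libraries numbered 1 were the higher ones in both groups, opposite to Pcsk2. edgeR gave a log2 fold change of 0.03 (SE 0.14, adjusted p = 1.00) and an interval of 0.796 to 1.31 on the fold scale. Per kb, Pcsk2 exceeded Pcsk1 by 4.18 to 1 in ND-1, 5.40 in ND-2, 4.17 in DEP-1 and 5.34 in DEP-2. This ratio was 4.79 ± 0.857 without and 4.76 ± 0.823 with depletion (SD, n = 2 each), and the groups overlapped (exact two-sided permutation p = 0.667). With coding transcript lengths the ratio of Pcsk2 to Pcsk1 was 3.43 to 4.44.

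The promoters of both endocrine convertases are shown because these genes share a function but differ in sequence at their starts. Each window holds 250 bases before and 50 after the start, from RefSeq on GRCm38.p6, written 5′ to 3′ on the gene's strand, for Pcsk1 at chr13:75089607-75089906 and for Pcsk2 at chr2:143545883-143546182. Capitals mark exact matches on either strand to 4 motifs: the cAMP response element TGACGTCA, its core TGACG, the GC box GGGCGG and the TATA box TATAAA. Each full element holds a core on both strands.
Pcsk1: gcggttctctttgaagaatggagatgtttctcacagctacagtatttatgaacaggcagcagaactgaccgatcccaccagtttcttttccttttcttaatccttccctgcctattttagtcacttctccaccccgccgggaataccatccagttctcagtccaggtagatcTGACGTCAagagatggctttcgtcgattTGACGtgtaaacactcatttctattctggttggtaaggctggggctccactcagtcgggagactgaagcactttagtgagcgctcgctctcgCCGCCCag
Pcsk2: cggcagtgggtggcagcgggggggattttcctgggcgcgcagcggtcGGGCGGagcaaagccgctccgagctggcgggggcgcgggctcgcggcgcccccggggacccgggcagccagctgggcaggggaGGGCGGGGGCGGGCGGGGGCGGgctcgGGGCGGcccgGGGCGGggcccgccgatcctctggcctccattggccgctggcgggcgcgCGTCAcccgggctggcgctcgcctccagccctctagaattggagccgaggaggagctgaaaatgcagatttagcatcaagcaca
The Pcsk1 window holds a full cAMP response element that begins 78 bases before the start and a further core 50 bases before it. Of 32851 promoter windows of this length, 1.79% hold the full element, 20.8% the core, 35.7% the GC box and 13.6% the TATA box. The Pcsk2 window has no full element, 1 core and 7 GC boxes, against 1 GC box for Pcsk1. Its GC content was 76.3% with 36 CpG dinucleotides, and that of Pcsk1 was 49.3% with 13, where the median window had 52.7% and 7. Such matches are letters in a window and were not tested for function.

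Furin (ENSMUSG00000030530, chromosome 7, 80388585 to 80405436, minus strand, GRCm38), the protease of the trans-Golgi network, was the most abundant ubiquitous convertase. Its levels were 173.8 CPM in ND-1, 169.7 in ND-2, 168.7 in DEP-1 and 169.5 in DEP-2. This was the only member whose groups did not overlap, with both depleted libraries below both non-depleted ones by a small margin: the means were 172 ± 2.93 and 169 ± 0.570 CPM (SD, n = 2 each). edgeR gave a log2 fold change of -0.02 (SE 0.07, adjusted p = 1.00), which turned to 0.034 with totals that include insulin. Under that scaling the median of all genes was 0.058. No member lay above without overlap. Of Furin's exon bases, 1.29% are shared with the antisense gene Gm44851. Over all 19620 genes, both depleted libraries lay below both non-depleted ones for 9.38% and above for 10.0%, so 1 of 10 members is near the background.

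RefSeq gives Furin 2 starts, and they are printed because they differ in kind, as do those of the endocrine pair. The windows lie on the minus strand of GRCm38.p6 at chr7:80405387-80405686 and chr7:80402763-80403062, with the same motifs in capitals.
Furin, upstream start: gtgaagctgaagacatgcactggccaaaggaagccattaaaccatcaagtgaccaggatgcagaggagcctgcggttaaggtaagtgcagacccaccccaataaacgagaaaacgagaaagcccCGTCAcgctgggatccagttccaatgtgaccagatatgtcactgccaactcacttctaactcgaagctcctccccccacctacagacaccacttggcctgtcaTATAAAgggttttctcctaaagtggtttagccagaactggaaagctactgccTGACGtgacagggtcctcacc
Furin, downstream start: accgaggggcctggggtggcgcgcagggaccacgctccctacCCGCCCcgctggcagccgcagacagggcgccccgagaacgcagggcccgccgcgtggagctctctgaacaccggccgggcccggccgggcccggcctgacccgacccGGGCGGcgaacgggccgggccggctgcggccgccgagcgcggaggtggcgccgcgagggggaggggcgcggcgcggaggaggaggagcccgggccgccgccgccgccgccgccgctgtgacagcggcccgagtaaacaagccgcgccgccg
The upstream window has a TATA box 23 bases before the start, 2 cores and no GC box, with a GC content of 51.3%. The downstream window has no TATA box, 2 GC boxes and a GC content of 82.3%. Gene counts do not separate reads of the 2 starts. Windows of Pcsk5, Pcsk6 and Pcsk7 had GC contents of 65.7, 81.7 and 78.7% and 2, 2 and 3 GC boxes, with no full cAMP response element. Promoter entries were matched for 8 of the 10 members, and Cpe and Pcsk4 had none.

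The other convertases were far lower. Pcsk6 (PACE4; chromosome 7, 65861734 to 66050386, plus strand, GRCm38), a secreted convertase that matures growth factors of the TGF-beta family, had 45.1 CPM in ND-1, 54.3 in ND-2, 41.0 in DEP-1 and 55.3 in DEP-2. Pcsk7 (chromosome 9, 45906497 to 45929726, plus strand), a membrane-bound convertase of the Golgi, had 23.9, 23.7, 21.0 and 25.8 CPM in the same order. Both overlapped between groups, with log2 fold changes of -0.04 (SE 0.17) for Pcsk6 and -0.02 (SE 0.14) for Pcsk7 (edgeR adjusted p = 1.00 for each). For Pcsk7, 10.1% of exon bases are also exons of Rnf214 or Tagln on the opposite strand, so part of its reads is uncertain, and for Pcsk6 3.01% are shared with Gm45213 on the same strand.

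Pcsk5 (chromosome 19, 17432319 to 17837632, minus strand, GRCm38), a convertase best known for its role in embryonic development, was the lowest member by level. It had 122 counts in ND-1, 148 in ND-2, 58 in DEP-1 and 128 in DEP-2, or 2.51, 2.55, 3.01 and 1.97 CPM. The insulin-depleted libraries were the highest and the lowest of the 4, with exact Poisson 95% intervals of 2.28 to 3.89 and 1.65 to 2.35 CPM, which cover counting error only. Low counts were mostly even (80.01 to 84.01% of counts from 2 to 9), and counting in steps of 2 would make such intervals too narrow. edgeR gave a log2 fold change of -0.05 (SE 0.29, adjusted p = 1.00) and an interval of 0.579 to 1.61 on the fold scale.

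Pcsk4 (chromosome 10, 80321283 to 80329498, minus strand, GRCm38), known as the convertase of male germ cells, was read at a level above Pcsk7 per kb. It had 1142 counts in ND-1, 1978 in ND-2, 396 in DEP-1 and 2248 in DEP-2, or 23.5, 34.0, 20.5 and 34.7 CPM. Both libraries numbered 1 lay below both numbered 2. The difference between groups was -0.05 on the log2 scale (SE 0.29, edgeR adjusted p = 1.00), with the groups overlapping. No exon base of Pcsk4 is shared with another annotated gene.

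Summed per kb, the endocrine convertases Pcsk1 and Pcsk2 exceeded the ubiquitous Furin, Pcsk5, Pcsk6 and Pcsk7 by 10.7 to 1 in ND-1, 10.4 in ND-2, 11.7 in DEP-1 and 10.3 in DEP-2. The lowest Pcsk1 level in any library, 54.9 CPM per kb, was above the highest Furin level, 18.9. With coding transcript lengths the ratio was 7.05 to 7.67. The groups overlapped: the ratio was 10.6 ± 0.178 without and 10.98 ± 0.948 with depletion (SD, n = 2 each). An exact permutation test, two-sided, gave p = 1.00, and 2 against 2 libraries allow no p below 0.333. The difference of 0.05 in its log2 became -0.03 without DEP-1, so 1 library sets its direction.

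Of the per-kb signal of the 7 convertases, Pcsk2 took 72.3 to 74.8% and Pcsk1 13.9 to 17.5% over the 4 libraries. Furin took 4.63 to 4.90%, Pcsk6 2.01 to 2.67%, Pcsk4 1.77 to 2.94% and Pcsk7 1.02 to 1.25%, and Pcsk5 0.0342 to 0.0530%. The share of Pcsk1 was 17.3% in ND-1 and 17.5% in DEP-1 but 13.9% in ND-2 and 14.0% in DEP-2, so the higher shares were those of the libraries numbered 1. With coding transcript lengths the share of Pcsk2 was 67.1 to 70.2%, that of Pcsk1 15.8 to 19.7% and that of Furin 8.76 to 9.18%. On these lengths Pcsk6 took 1.78 to 2.40% and Pcsk4 1.14 to 1.92%.

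**Figure D2:**
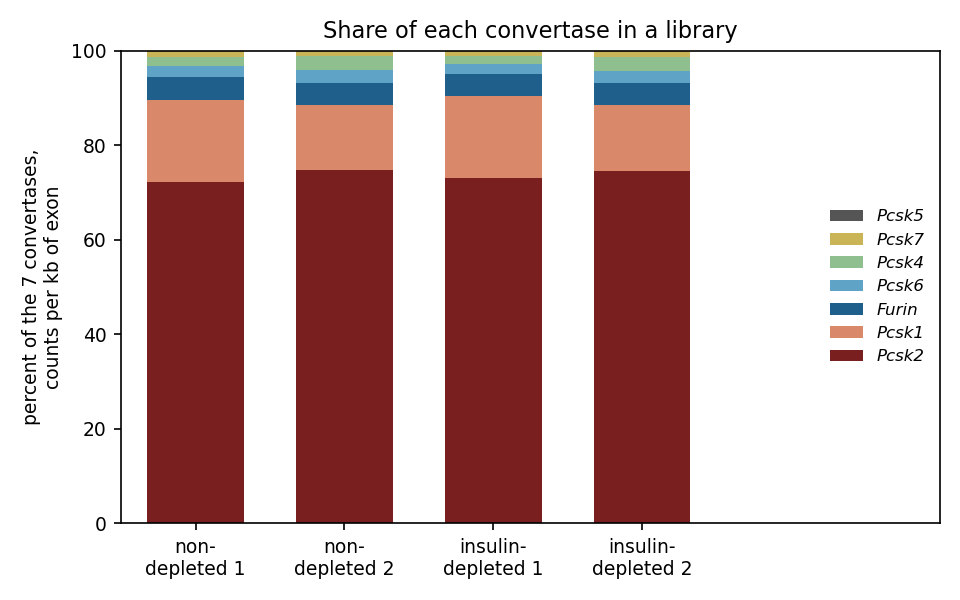
Share of each of the 7 convertases in each library, as percent of their summed counts per kb of exon, with 1 stacked bar per library. Pcsk2 fills 72.3 to 74.8% of every bar and Pcsk1 13.9 to 17.5%, with the larger Pcsk1 shares in the libraries numbered 1.

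Among the enzymes that finish the peptides, Cpe (ENSMUSG00000037852, chromosome 8, 64592542 to 64693054, minus strand, GRCm38) had 3237 CPM in ND-1, 3124 in ND-2, 3305 in DEP-1 and 3133 in DEP-2. It encodes the granule enzyme that removes C-terminal lysine and arginine after the convertases have cut. The groups overlapped, at a log2 fold change of 0.02 (SE 0.08, edgeR adjusted p = 1.00) and an interval of 0.882 to 1.16 on the fold scale. Cpd (ENSMUSG00000020841, chromosome 11, 76778424 to 76847018, minus strand), a related enzyme of the trans-Golgi network, had 469, 424, 488 and 429 CPM in the same order of libraries, with overlapping groups. The fitted log2 difference was 0.04 (SE 0.10, adjusted p = 1.00 in edgeR). Per kb, Cpe exceeded Cpd by 21.6 to 23.6 to 1 over the 4 libraries.

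Pam (ENSMUSG00000026335, chromosome 1, 97795114 to 98095646, minus strand, GRCm38) encodes the only known enzyme that amidates peptides, among them amylin and pancreatic polypeptide. It had 1678 CPM in ND-1, 1870 in ND-2, 1692 in DEP-1 and 1858 in DEP-2. Its depleted libraries lay between the non-depleted ones. Of its exon bases, 1.58% are shared with B230216N24Rik on the same strand. The fitted log2 difference was 0.0010 (SE 0.10, adjusted p = 1.00 in edgeR) with an interval of 0.847 to 1.18 on the fold scale.

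Across the 10 members, 5 log2 fold changes were above and 5 below 0, from -0.05 for Pcsk5 to 0.04 for Cpd, with a median of -0.0079 beside 0.0016 over all 19620 genes tested. None was called: 0 members were higher and 0 lower at an adjusted p under 0.05 in edgeR, and 0 had an unadjusted p under 0.05, the range being 0.716 to 0.992. These p-values are from the fit on group alone, which counts the difference between replicate numbers as spread. With a replicate term in edgeR, unadjusted p ran from 0.0689 for Cpd to 0.950 for Pcsk7. Of all genes tested, 0% were called higher and 0.0102% lower, the latter being Ins1 and Ins2. DESeq2 and limma-voom also called 0 members. All 5 members below 0 were convertases other than the endocrine pair, and Pcsk1, Pcsk2, Cpe, Cpd and Pam were above 0. Every value was smaller in size than its standard error in the fit on group alone. With a replicate term, Cpd (0.036, SE 0.020), Pcsk2 (0.021, SE 0.013), Pcsk1 (0.030, SE 0.022) and Cpe (0.017, SE 0.012) exceeded theirs, and the other members did not. The signs depend on the scaling: with totals that include insulin all 10 were above 0, where the median of all genes was 0.06. There the same 5 convertases lay at 0.0071 to 0.040, and Pcsk1, Pcsk2, Cpe, Cpd and Pam at 0.057 to 0.095. With limma-voom the 2 sets were not apart, as Pcsk4 (0.023) lay above Pcsk1 (0.012). A p that misses the threshold does not show equal levels. The intervals of this fit on group alone give limits that also take in the difference between replicate numbers. For Pcsk2, Furin, Cpe, Cpd and Pam these intervals lay within 0.847 to 1.22 on the fold scale. They were widest for Pcsk4 (0.579 to 1.62) and Pcsk5 (0.579 to 1.61).

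**Figure D3:**
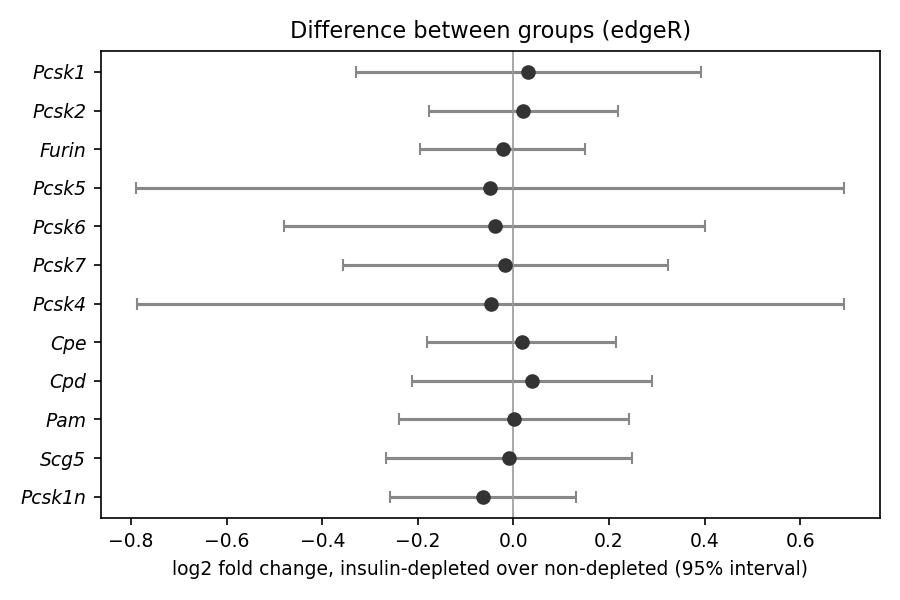
Log2 fold change of insulin-depleted over non-depleted libraries for the 10 members and the partner proteins Scg5 and Pcsk1n (edgeR, bars are 95% intervals, 2 libraries per group). Every interval includes 0, and those of Pcsk4 and Pcsk5 are the widest.

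The members were compared with the insulin transcripts themselves, since the panel was aimed at insulin sequence. Outside runs of 8 or more of a single base, the longest stretch that each member's longest coding transcript shared with any coding transcript of Ins1 or Ins2, on either strand, had 11 to 13 bases. The median over 21899 coding genes was 12 bases, and 3 of them shared 20 bases or more. The stretches below are those of the 4 most abundant members and of the members with 13 shared bases, in capitals because every base is shared.
Cpe: GAGAGGAGGCT
Pcsk2: TGATGGTTTTTG
Pam: CCCTGTGGCTG
Pcsk1: CCTCCCAGCAA
Cpd: TCTCTGGGGAAAT
Furin: GAGGGGTAGGCTG
Pcsk7: ACAGGAACCTCAG
The stretch of Pcsk7 is shared with Ins1 and the others printed with Ins2. All lie within the range of most coding genes (10 to 14 bases from the 5th to the 95th percentile), and the panel's own target sequences were not used here.

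Differences between the libraries of a group were larger for several members than differences between groups at the same replicate number. Pcsk1 had log2 ratios of 0.28 and 0.30 between the libraries numbered 1 and 2 in the non-depleted and in the insulin-depleted group, and 0.04 and 0.02 between the groups at numbers 1 and 2. For Pcsk4 the ratios of number 1 over 2 were -0.53 and -0.75, for Pcsk6 -0.27 and -0.43, for Pam -0.16 and -0.14 and for Cpd 0.15 and 0.19. Library 1 was thus the higher in both groups for Pcsk1, Cpd and Cpe, and the lower for Pcsk4, Pcsk6, Pam and Pcsk2, which are 3 and 4 of 10 members. The median size of the log2 ratio over the 10 members, the low Pcsk5 included, was 0.12 and 0.24 within the groups and 0.05 and 0.02 between groups at numbers 1 and 2, beside 0.13, 0.14, 0.06 and 0.04 over the 10008 genes that averaged 10 CPM or more. Markers of acinar cells, the enzyme-producing cells around islets, moved with the number: 10 of 10 were higher in the libraries numbered 1, and they summed to 14413 CPM in ND-1, 5925 in ND-2, 14435 in DEP-1 and 5953 in DEP-2. Of 6 endothelial markers, 6 were lower in the libraries numbered 1. Of 8 beta-cell markers, 6 were lower and 2 higher in the libraries numbered 1, although their sum, nearly all of it Iapp, was 19812 CPM in ND-1, 18527 in ND-2, 19496 in DEP-1 and 18675 in DEP-2. Their part in the members' values was not tested.

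**Figure D4:**
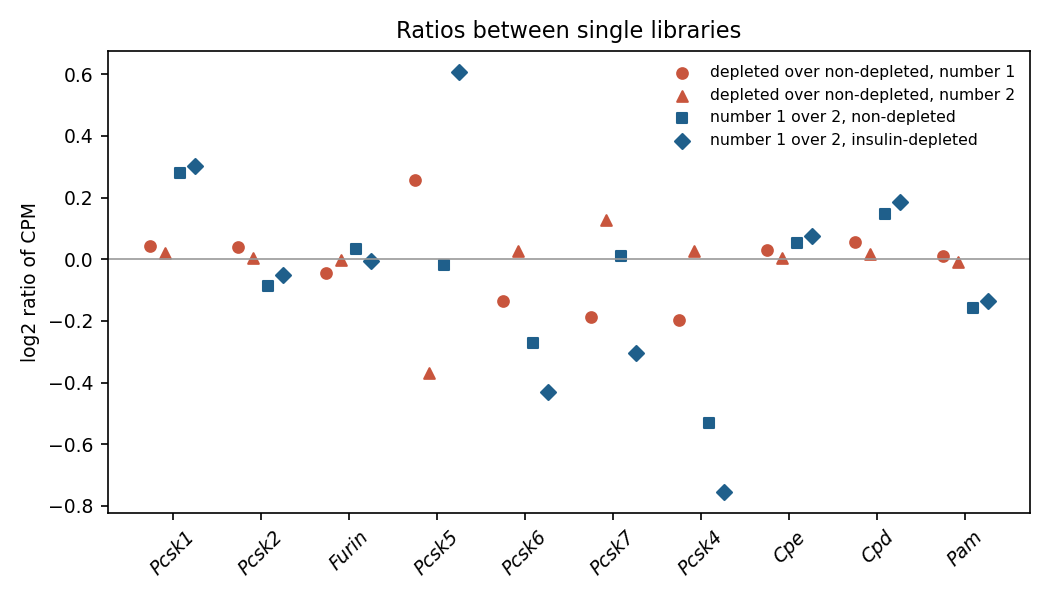
Log2 ratios of CPM between pairs of libraries for each member: red points compare insulin-depleted with non-depleted libraries of the same replicate number, blue points compare replicates 1 and 2 within a group. Pcsk1, Pcsk2, Pcsk4, Pcsk6, Cpe, Cpd and Pam have blue points on the same side of 0 in both groups, farther from 0 than the red ones.

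RNA of the partner proteins of the endocrine convertases was abundant. Scg5, the chaperone that PCSK2 needs to become active, had 628 CPM in ND-1, 704 in ND-2, 620 in DEP-1 and 703 in DEP-2. Pcsk1n (proSAAS), an inhibitor of PCSK1, had 218, 226, 204 and 221 CPM in the same order. Both overlapped between groups, with log2 fold changes of -0.01 for Scg5 and -0.06 for Pcsk1n, and 0 of 2 was called. Per kb, Pcsk2 reached 0.661 to 0.726 of the level of Scg5, and Pcsk1 0.533 to 0.739 of that of Pcsk1n. For Pcsk1n, 6.16% of exon bases are shared with Eras on the opposite strand. With coding transcript lengths the second ratio was 1.09 to 1.503, so which of Pcsk1 and Pcsk1n is higher rests on the length used. In all, 8 such ratios between genes were compared between groups, and each overlapped between them (exact two-sided permutation p of 0.667 or 1.00, adjusted p = 1.00).

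Other genes of the pathway were read from lists, in each of which 0 members were called in either direction. Mbtps1, the Golgi protease that activates sterol regulators, had 146 CPM in ND-1, 149 in ND-2, 153 in DEP-1 and 154 in DEP-2. The groups did not overlap, with DEP-1 and DEP-2 the higher, as for 10.0% of all 19620 genes tested. The log2 fold change of 0.05 did not pass the test (SE 0.07, edgeR adjusted p = 1.00). Of 6 other carboxypeptidases of the Cpe family, 3 were above and 3 below 0, from -0.61 for Cpxm2 to 1.22 for Cpz. Without overlap between groups, 1 of the 6 lay above and 2 below, beside 10.0% and 9.38% of all genes tested. Cpz had 10, 2, 8 and 12 counts, too few for a comparison, and Cpn1, the most abundant of them per kb, had 57.0, 78.6, 54.0 and 76.6 CPM. Of 5 other processing enzymes, 4 were above and 1 below 0, from -0.14 for the glutaminyl cyclase Qpctl to 0.06 for the aminopeptidase Rnpep. Without overlap between groups, 0 of the 5 lay above and 1 below. Ctsl, a cathepsin, was the highest of these with 989, 786, 986 and 790 CPM, and in both groups the libraries numbered 1 were the higher for 5 of 5.

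Substrates were also read, as the genes whose products these enzymes cut. Of 13 granule substrates other than insulin, 5 were above and 8 below 0, with a median of -0.0027 and a range from -0.11 for Ghrl to 0.17 for Npy. Iapp, the amylin precursor, was the highest of them with 18761 CPM in ND-1, 17396 in ND-2, 18445 in DEP-1 and 17552 in DEP-2. Of 10 substrates of the constitutive pathway, 5 were above and 5 below 0, from -0.06 for Tgfb1 to 0.07 for the sorting receptor Sort1, and the sheddase Adam10, with 236, 203, 224 and 208 CPM, was the highest of them per kb. The insulin genes were the exception by design of the panel. Ins1 had 11621 CPM in ND-1, 9215 in ND-2, 105 in DEP-1 and 123 in DEP-2, a log2 fold change of -6.52 (SE 0.18, edgeR adjusted p = 0.00289). Ins2 had 31556, 32093, 1853 and 2522 CPM, a log2 fold change of -3.86 (SE 0.18, edgeR adjusted p = 0.0178).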

How the data were processed

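RNA of mouse islets was measured in 4 bulk libraries. The authors deposited 1 table of whole-number gene counts without normalization. In the listing of units, the deposited values without depletion appear under estimated counts because of a word in their headers, but they are whole numbers and were used unrounded. Trimming, alignment or other roles are not described for cutadapt 4.8, STAR 2.7.11b and the builds GRCm38 and mm10, which per the submitters' processing notes were used. How reads were counted, by strand or when mapped to several places, is not given in the sources used here. All 55536 identifiers and symbols matched GENCODE M21 on GRCm38, which gave positions, exon lengths and transcripts. Columns were assigned to libraries by their number and by the presence or absence of a tag for depletion. The members and lists were chosen with earlier results of these data known. Totals without Ins1 and Ins2 ran from 19278430 to 64858544 counts and served as library sizes.

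Counts were fitted across all genes with edgeR 4.0.16 in R 4.3.3 (filterByExpr, estimateDisp, robust glmQLFit, glmQLFTest on group alone, no further scaling), with Benjamini-Hochberg adjustment over 19620 genes and a threshold of 0.05. The code was tried on simulated counts of independent libraries with TMM scaling, so the scaling of the main fit was not tried in this way. The biological coefficient of variation was 17.1%. Intervals of 95% used the moderated degrees of freedom. Exact permutation tests, two-sided, were used for ratios of genes (scipy 1.17.1). Alternatives were totals with insulin, with and without TMM, DESeq2 1.42.0, limma-voom (limma 3.58.1), no filter, a replicate term, halved counts and leaving out each library. All 10 members were named whatever their values. Of each pathway list, the genes with the lowest and the highest fold change and the highest level per kb were named, with Scg5, Pcsk1n, Ins1 and Ins2 by function. One gene that this rule names is not reported here.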

Additional observations from a re-analysis of the deposited data

How the results depend on the processing

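No member was called under any of the 11 alternative fits, and each of those on group alone called 2 genes lower and 0 higher over the whole table. The labels share replicate numbers but do not say that a number marks a shared source. Libraries of the same number deviated together (r = 0.844 over 11610 genes, which are not independent), and with a replicate block 2 genes were called higher and 7 lower, none a member. That fit gave narrower log2 intervals, such as -0.0056 to 0.047 for Pcsk2, -0.0028 to 0.075 for Cpd, -0.20 to 0.086 for Pcsk4 and -0.56 to 0.39 for Pcsk5, each including 0, as did those of the other 6 members. Part of the narrowing comes from larger moderated degrees of freedom in that fit. Its intervals rest almost wholly on variance shared over genes, and few libraries remain to measure that of a single gene. With totals that include insulin the median over all genes moved to 0.058 on the log2 scale and that over members to 0.048, and Pcsk4 (0.0080), Pcsk5 (0.0071), Pcsk6 (0.017), Pcsk7 (0.040) and Furin (0.034) turned above 0, so their direction follows the scaling. Pcsk4 (0.023) and Pcsk7 (0.016) did so with limma-voom, and Pam turned below 0 with TMM on totals that include insulin (-0.0026) and with DESeq2 (-0.00048). Leaving out 1 library at a time, with the lone library of a group assumed to vary like the other group, log2 fold changes ran from -0.13 to 0.18 for Pcsk1, -0.022 to 0.064 for Pcsk2, -0.49 to 0.27 for Pcsk4, -0.36 to 0.25 for Pcsk5, -0.28 to 0.15 for Pcsk6, -0.18 to 0.12 for Pcsk7, -0.022 to 0.055 for Cpe, -0.057 to 0.13 for Cpd and -0.075 to 0.081 for Pam, while Furin stayed below 0. The direction turned without ND-1 for 2 members, without ND-2 for 5, without DEP-1 for 6 and without DEP-2 for 3. The median over members ran from -0.016 to 0.013, and the log2 difference in the endocrine-to-ubiquitous ratio from -0.034 to 0.14. Within a replicate block the difference in this ratio was 0.05, the mean of 0.125 at number 1 and -0.017 at number 2, which differ in sign. The cause of these turns was not tested.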
